A study of Mus musculus with 16 samples.

Results

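The genes described here are 10 components and outputs of the circadian clock: the period genes Per1, Per2 and Per3, the cryptochromes Cry1 and Cry2, the activator gene Clock, the nuclear receptor genes Nr1d1 and Nr1d2, and Dbp and Tef of the PAR-bZIP family. They were chosen by name, as the probe sets whose only gene symbol in the array's annotation is one of these 10, which gave 24 of 44904 probe sets and 10 of 18168 genes. None of the 24 was lost to missing values. Per3 had 6 probe sets, Clock 4, Per2 and Tef 3 each, Nr1d2 and Dbp 2 each, and Per1, Cry1, Cry2 and Nr1d1 rested on 1 probe set each.

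In the study, RNA of aged mice that overexpressed a mutant form of Twinkle, the helicase of mitochondrial DNA, was compared with RNA of wild-type mice in cerebellum and hippocampus. There were 16 Affymetrix arrays in 4 groups of 4. In order of replicate number, the wild types were 26, 24, 21 and 23 months old and the mutants 24, 24, 21 and 21 months old, in both regions. No other agent or allele is named in the labels. The sources used here do not give the promoter that drives the transgene, the mouse line or the time of day at which tissue was taken. The labels do not say whether a cerebellum and a hippocampus with the same number came from 1 animal.

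In the clock of mammalian cells, CLOCK and its partner BMAL1 (the product of Arntl) bind E-box sequences and switch on the period and cryptochrome genes, whose proteins return to the nucleus and repress CLOCK and BMAL1. The same activators drive Nr1d1 and Nr1d2, whose products (REV-ERB alpha and beta) repress Arntl, and Dbp and Tef, whose products bind D-box sequences in output genes. Levels of most of these transcripts rise and fall over the day. Per1 and Per2 are also switched on acutely by neuronal activity and stress through the CREB pathway.

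The letters that the clock factors recognise were looked up in RefSeq promoter windows of build GRCm38.p6, each running from 250 bases before a transcript start to 50 bases after it. There were 13 windows for 9 of the 10 genes, and Per2 was not among them. The E-box was searched as CACGTG, the D-box as TTATGTAA, the core of the REV-ERB and ROR element as TAGGTCA and the cyclic AMP response element as TGACGTCA, on both strands, and no matches overlapped. The E-box was found in windows of 3 of these 9 genes, Per1, Cry1 and Tef. It was found in 7.15% of all 32851 windows, a share of windows and not of genes, and a gene can have several windows. The D-box was found at 2 places in the Per3 window and in 0.938% of all windows. The other 2 elements, present in 2.61% and 1.79% of all windows, were not among the letters of the 13 windows. The first 200 bases of 4 windows are shown, 5′ to 3′, because these genes carried the matches and recur in the results below, with the matched letters in capitals.
Per3: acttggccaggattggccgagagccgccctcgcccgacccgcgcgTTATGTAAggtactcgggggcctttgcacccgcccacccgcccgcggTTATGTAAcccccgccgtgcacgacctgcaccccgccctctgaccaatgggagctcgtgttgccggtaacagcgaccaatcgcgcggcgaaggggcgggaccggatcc
Per1: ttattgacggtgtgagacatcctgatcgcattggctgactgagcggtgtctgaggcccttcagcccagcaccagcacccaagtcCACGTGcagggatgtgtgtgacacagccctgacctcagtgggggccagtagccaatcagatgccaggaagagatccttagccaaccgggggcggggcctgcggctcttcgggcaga
Cry1: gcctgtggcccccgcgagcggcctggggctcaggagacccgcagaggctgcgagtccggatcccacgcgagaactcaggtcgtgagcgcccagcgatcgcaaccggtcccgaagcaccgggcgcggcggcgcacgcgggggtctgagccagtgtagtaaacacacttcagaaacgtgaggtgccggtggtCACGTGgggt
Tef: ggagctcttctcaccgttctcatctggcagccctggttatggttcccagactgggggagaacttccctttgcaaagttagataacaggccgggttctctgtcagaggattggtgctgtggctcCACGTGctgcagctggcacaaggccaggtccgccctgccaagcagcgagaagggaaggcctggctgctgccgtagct
The Per3 stretch is chr4:151044716-151044915 on the minus strand, with D-boxes that begin 205 and 158 bases before the transcript start. The Per1 stretch is chr11:69098699-69098898 on the plus strand, inside the annotated gene and upstream of an internal transcript start, with its E-box 166 bases before that start. The Cry1 stretch is chr10:85185105-85185304 on the minus strand, with its E-box 60 bases before the start. The Tef stretch is chr15:81802423-81802622 on the plus strand, with its E-box 127 bases before the start, and a second Tef window held an E-box 138 bases before its start. A match describes the letters and does not show that a factor was bound. In the same build the RefSeq gene table places Per1 at chr11:69095108-69109965, Per2 at chr1:91415977-91459351, Per3 at chr4:150997018-151044707, Cry1 at chr10:85131700-85185054 and Nr1d1 at chr11:98767932-98775377, so that Per1 and Nr1d1 share a chromosome.

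Each value below is a difference on the log2 scale from the median of the 8 arrays of its region, so 0 is the median array, and neither expression levels nor a difference between the regions' levels can be read from it. The transgene's own gene, Twnk, had 1 probe set. In cerebellum it spanned -0.15 to 0.01 in wild types and -0.01 to 0.11 in mutants, and in hippocampus -0.11 to 0.05 and -0.01 to 0.03, with a limma adjusted p of 0.91 and 0.77. The sources used here do not say whether that probe set reads the transgene. The centring leaves no marker level with which to check the tissue labels. Some arrays stood apart. In hippocampus, genes of cerebellar granule neurons (8 of 9 measured) averaged 2.39 above the median array on wild-type replicate 1, 0.81 on mutant replicate 1 and 0.33 on mutant replicate 3, and between -0.13 and -0.07 on the other arrays. Purkinje cell genes (6 of 7 measured) were also highest on wild-type replicate 1, at 1.33, where hippocampal pyramidal cell genes (6 of 6) were lowest, at -0.88. In cerebellum, poly-A spike-in probe sets averaged 0.55 on mutant replicate 2 and 0.59 on mutant replicate 4. Pyramidal cell genes were at 0.60 on mutant cerebellum 2, hybridization spike-ins at -0.72 on wild-type cerebellum 4, choroid plexus genes (10 of 12) at 2.13 on mutant hippocampus 4, and genes of meninges and fibroblasts (10 of 10) at 1.01 on mutant hippocampus 1. For the 10 clock genes, genotype differences in a region are given below also with some arrays left out. These are the 3 hippocampal arrays high in granule genes or the 2 cerebellar arrays with raised spike-ins, a choice made after the values were seen.

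No clock gene passed the threshold, an adjusted p of 0.05 in a limma fit over all 18168 genes, in either region, in the difference between regions or in the average over regions. The adjusted background was 0% in each, since no gene of the array passed. In the cerebellum, 9 of the 10 genes had a mutant mean below the wild-type mean, with Cry1 the exception, against 46.4% of all genes. The median difference over the 10 was -0.11, against 0.01 over all genes. Of the 10, Per2 and Per3 had an unadjusted p under 0.05 with the mutant lower, as did 2.24% of all genes, and 5.39% of all genes had one in either direction. In the hippocampus, 7 of the 10 had a mutant mean below the wild-type mean, against 41.1% of all genes, the median difference was -0.07 against 0.02, and Cry1 was the only one with an unadjusted p under 0.05, against 2.75% of all genes with the mutant lower and 8.03% in either direction. The groups overlapped for 10 of 10 genes in both regions, whereas 2.46% of all genes in cerebellum and 4.76% in hippocampus had groups that did not overlap. Without mutant cerebellum 2 and 4, 8 of the 10 were below 0, the median was -0.07, and none had an unadjusted p under 0.05 with the mutant lower, against 1.14% of all genes. Without the 3 hippocampal arrays, 9 of the 10 were below 0, the median was -0.08, and none had such a p, against 2.21% of all genes. Blood genes (4 of 7 measured) separated the genotypes in both regions. Their mean ran from 0.04 to 0.35 in wild-type and from -0.12 to -0.07 in mutant cerebellum, and from 0.06 to 0.67 and -0.30 to -0.06 in hippocampus, and their part in the values of the clock genes was not tested. The genes vary together, so these counts are not 10 independent observations.

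**Figure D1:**
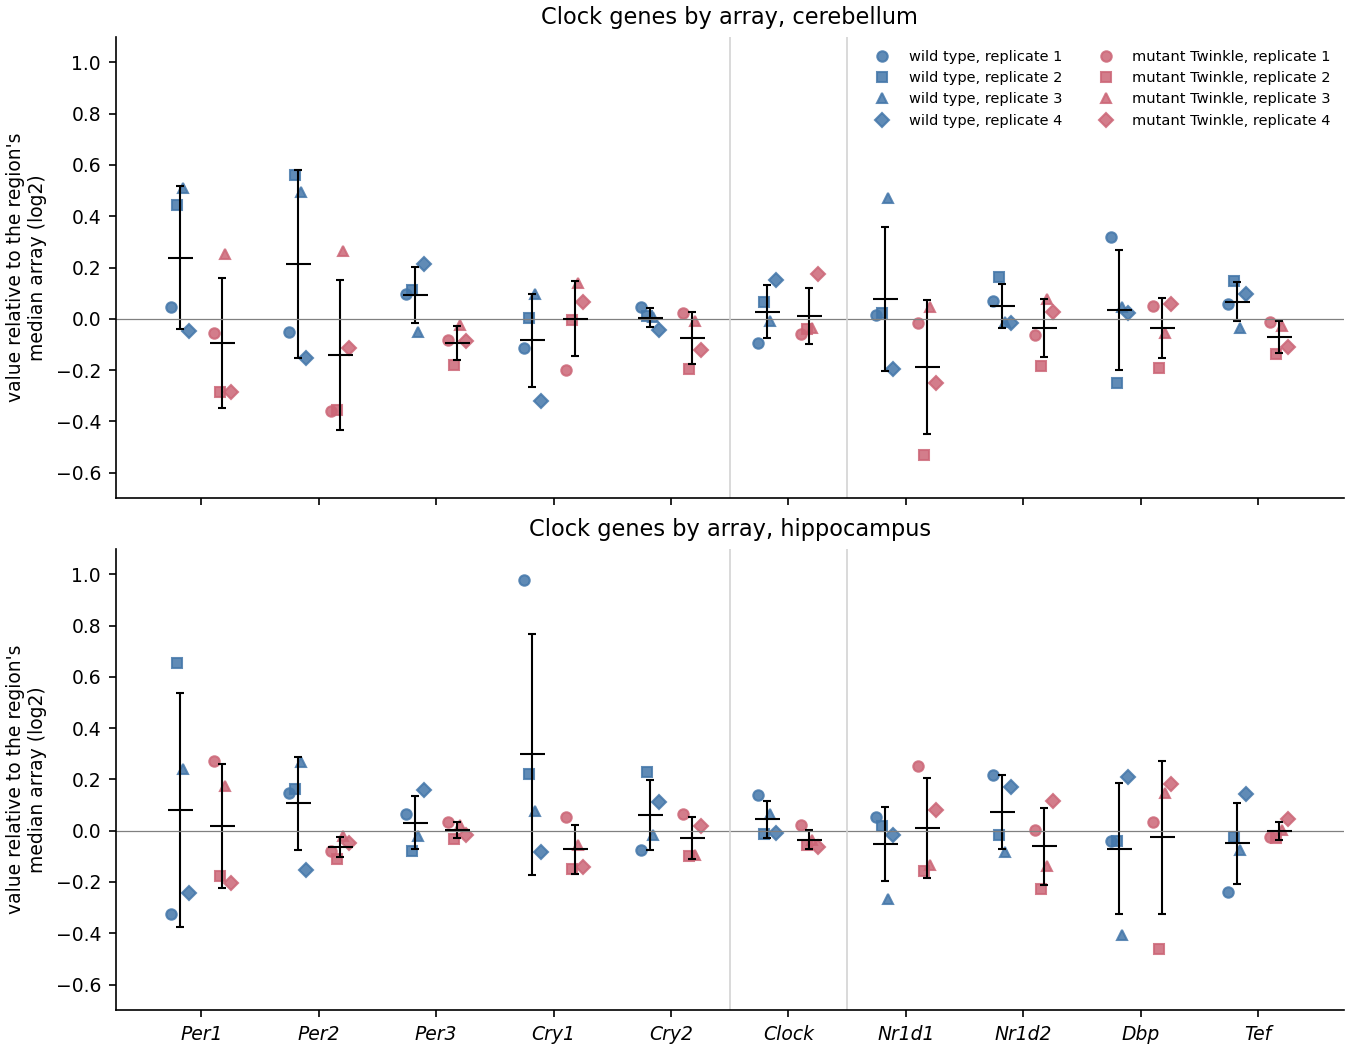
Value of each clock gene on every array (log2 difference from the region's median array), for cerebellum (top) and hippocampus (bottom), with blue for wild type, red for mutant Twinkle, a symbol for each replicate number, and black bars for the mean ± SD of 4 arrays. Per1 and Per2 in cerebellum and Per1 in hippocampus spread widely within each genotype, and Cry1 in hippocampus has 1 wild-type array at 0.98, far above the other 7.

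The period genes encode the repressors that time the feedback loop. In the cerebellum, Per2 was -0.05, 0.56, 0.50 and -0.15 in wild-type replicates 1 to 4, and -0.36, -0.36, 0.27 and -0.11 in mutant replicates 1 to 4. Wild-type replicates 2 and 3 were the highest arrays and mutant replicates 1 and 2 the lowest, while mutant replicate 3 lay above wild types 1 and 4, so the groups overlapped. The mean was 0.21 ± 0.37 (SD, n = 4) in wild types and -0.14 ± 0.29 (SD, n = 4) in mutants. The difference was -0.35 (SE 0.16; limma adjusted p = 0.88, unadjusted 0.038), with the 3 Per2 probe sets at -0.39, -0.35 and -0.32. It was -0.26 without mutant replicates 2 and 4, the arrays with raised spike-ins.

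Per1, the period gene that responds most quickly to light and activity, was 0.05, 0.44, 0.51 and -0.05 in wild-type cerebellum and -0.06, -0.29, 0.25 and -0.28 in mutant cerebellum, in order of replicate number. As for Per2, wild types 2 and 3 stood highest, and mutant 3 lay above the other mutants and above 2 wild types. The difference was -0.33 (SE 0.20; limma adjusted p = 0.88), and -0.14 without the 2 arrays with raised spike-ins, whose part in it was not tested.

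Per3, the period gene least required for rhythms in mice, varied far less. Its cerebellar values were 0.10, 0.11, -0.05 and 0.21 in wild types and -0.08, -0.18, -0.03 and -0.09 in mutants. All 4 mutants were below 0 and 3 of 4 wild types above it, and wild type 3 fell within the range of the mutants. The difference was -0.19 (SE 0.06; limma adjusted p = 0.88, unadjusted 0.0088), and -0.15 without the 2 spike-in arrays. All 6 Per3 probe sets had a difference below 0, from -0.36 to -0.09.

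In the hippocampus Per1 was -0.33, 0.65, 0.24 and -0.24 in wild types and 0.27, -0.18, 0.18 and -0.20 in mutants, so that wild types were at once the lowest and the highest arrays. The difference was -0.06 (SE 0.20; limma adjusted p = 0.95). It became -0.20 when wild type 1 was left out, 0.13 when wild type 2 was left out, and -0.41 when the 3 hippocampal arrays high in cerebellar granule genes were left out. Per2 was 0.15, 0.16, 0.27 and -0.15 in wild types and -0.08, -0.11, -0.02 and -0.05 in mutants. Here 3 wild types lay above every mutant and wild type 4 below every mutant. The difference was -0.17 (SE 0.16; limma adjusted p = 0.80), but the 3 probe sets gave -0.37, -0.01 and -0.14. Per3 ranged from -0.08 to 0.16 in wild types and from -0.03 to 0.03 in mutants, with a difference of -0.03 (SE 0.06; limma adjusted p = 0.92).

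The cryptochromes are the direct repressors of CLOCK and BMAL1. In the hippocampus Cry1 was 0.98, 0.22, 0.08 and -0.08 in wild types and 0.05, -0.15, -0.05 and -0.14 in mutants. Wild-type replicate 1 stood far above all other arrays, and the rest of the wild types overlapped the mutants. The difference was -0.37 (SE 0.17; limma adjusted p = 0.60, unadjusted 0.039). That array also had the highest cerebellar granule and Purkinje values, given above, and without it the difference was -0.14. Without all 3 arrays with raised granule genes it was -0.22. The part of cerebellar RNA in the Cry1 value was not tested.

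In the cerebellum Cry1 went the other way, at -0.11, 0.00, 0.10 and -0.32 in wild types and -0.20, -0.00, 0.14 and 0.07 in mutants, with overlapping groups and a difference of 0.08 (SE 0.17; limma adjusted p = 0.97). The difference between the regions' genotype effects, hippocampus minus cerebellum, was -0.46 (SE 0.23; limma adjusted p = 0.87), and -0.23 without wild-type hippocampus replicate 1. Cry2 ranged from -0.04 to 0.05 in wild-type and from -0.20 to 0.02 in mutant cerebellum, and from -0.07 to 0.23 and -0.10 to 0.07 in hippocampus. Its differences were -0.08 (SE 0.07) and -0.09 (SE 0.07), with limma adjusted p of 0.92 and 0.75. Without the 2 spike-in arrays the cerebellar difference of Cry2 was 0.00.

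Clock, the activator itself, is known for a nearly flat transcript over the day. In cerebellum it was -0.09, 0.06, -0.01 and 0.15 in wild types and -0.06, -0.04, -0.04 and 0.18 in mutants, a difference of -0.02 (SE 0.06; limma adjusted p = 0.99). Mutant replicate 4 stood apart from the other mutants, and the difference was -0.08 without the 2 spike-in arrays. In hippocampus the range was -0.01 to 0.14 in wild types and -0.07 to 0.02 in mutants, a difference of -0.08 (SE 0.06; limma adjusted p = 0.77). The 4 Clock probe sets disagreed, at 0.06, -0.03, 0.06 and -0.17 in cerebellum and -0.14, 0.04, -0.09 and -0.13 in hippocampus. Between them, r ran from -0.18 to 0.66 in cerebellum and from -0.49 to 0.77 in hippocampus.

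**Figure D2:**
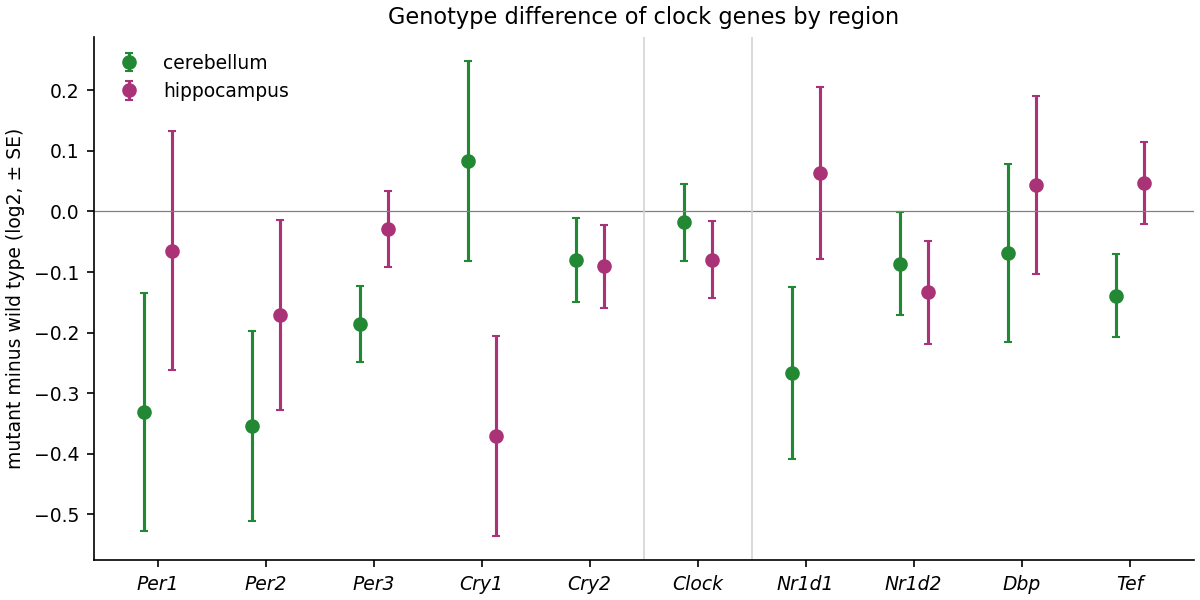
Mutant minus wild type (log2, ± SE of the limma fit) for each clock gene in cerebellum (green) and hippocampus (purple), 4 arrays against 4 in each region. In cerebellum 9 of 10 points lie below 0, in hippocampus 7 of 10, and Cry1, Nr1d1, Dbp and Tef lie on opposite sides of 0 in the 2 regions.

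Nr1d1 and Nr1d2 form the second loop of the clock. In cerebellum Nr1d1 was 0.02, 0.02, 0.47 and -0.19 in wild types and -0.02, -0.53, 0.05 and -0.25 in mutants. Wild type 3 was the highest array and mutant 2 the lowest, and the others overlapped. The difference was -0.27 (SE 0.14; limma adjusted p = 0.88), but it was -0.14 with wild type 3 left out and -0.06 with both spike-in arrays left out. In hippocampus Nr1d1 was 0.05, 0.02, -0.27 and -0.02 in wild types and 0.25, -0.16, -0.13 and 0.08 in mutants, with overlapping groups and a difference of 0.06 (SE 0.14; limma adjusted p = 0.93). The difference between regions was 0.33 (SE 0.20; limma adjusted p = 0.88), and 0.13 without the 2 spike-in arrays. Nr1d2 ranged from -0.02 to 0.16 in wild-type and from -0.18 to 0.08 in mutant cerebellum, and from -0.08 to 0.22 and -0.23 to 0.12 in hippocampus. Its differences were -0.09 (SE 0.09) and -0.13 (SE 0.09), with limma adjusted p of 0.94 and 0.70.

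Dbp and Tef encode the PAR-bZIP activators of output genes. Dbp was 0.32, -0.25, 0.05 and 0.02 in wild-type cerebellum and 0.05, -0.19, -0.05 and 0.06 in mutant cerebellum. In hippocampus it was -0.04, -0.04, -0.41 and 0.21 in wild types and 0.03, -0.46, 0.15 and 0.18 in mutants. Mutant replicate 2 was low in both regions, but wild type 2 was lower in cerebellum and wild type 3 almost as low in hippocampus, and the groups overlapped. The differences were -0.07 (SE 0.15; limma adjusted p = 0.98) and 0.04 (SE 0.15; limma adjusted p = 0.95). The 2 Dbp probe sets gave -0.20 and 0.06 in cerebellum, on opposite sides of 0, and 0.03 and 0.06 in hippocampus.

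Tef was steadier. In cerebellum it was 0.06, 0.15, -0.04 and 0.10 in wild types and -0.01, -0.14, -0.03 and -0.11 in mutants. All mutants were below 0, as was wild type 3. The difference was -0.14 (SE 0.07; limma adjusted p = 0.88, unadjusted 0.058), with probe sets at -0.09, -0.10 and -0.22. In hippocampus wild types ranged from -0.24 to 0.14 and mutants from -0.03 to 0.05, with a difference of 0.05 (SE 0.07; limma adjusted p = 0.88), and probe sets at 0.14, -0.09 and 0.09.

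The genes not yet given without the arrays that stood apart were as follows. In cerebellum, leaving out mutants 2 and 4 gave -0.04 for Nr1d2 and Dbp, -0.09 for Tef and 0.05 for Cry1. In hippocampus, leaving out the 3 arrays gave -0.17 for Per2, -0.04 for Per3, -0.15 for Cry2 and -0.07 for Clock. It gave 0.05 for Nr1d1, -0.08 for Nr1d2, -0.06 for Dbp and -0.01 for Tef, so that Dbp and Tef turned sign. The differences between regions of Per1 and Nr1d2 also turned, to -0.08 and 0.01.

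On the average over regions, tested on 8 values that each join both regions of a genotype and number whether or not they share an animal, all 10 differences were below 0, against 41.3% of all genes, with a median of -0.10 against 0.01. They ran from -0.26 for Per2 (SE 0.12; limma adjusted p = 0.59, unadjusted 0.056) to -0.01 for Dbp. None of the 10 had an unadjusted p under 0.05, against 8.51% of all genes. The 10 tests of the difference between regions also gave no unadjusted p under 0.05, against 5.35% of all genes. Replicates 3 and 4, the younger, were set against replicates 1 and 2 in a further fit in which age cannot be told apart from anything else a number shares. No clock gene passed. Cry1 in hippocampus alone had an unadjusted p under 0.05, at 0.049, with a difference of -0.33 (limma adjusted p = 0.75), against 6.55% of all genes in that region and 4.21% in cerebellum. Wild-type hippocampus 1, where Cry1 was 0.98 and granule genes were highest, is among the older replicates. The part of that array in this difference was not tested.

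The period and cryptochrome genes were compared with the Nr1d and PAR-bZIP genes by the mean of each class on each array, as a description without a test. In cerebellum the 5 period and cryptochrome genes averaged 0.09 ± 0.15 (SD, n = 4) in wild types and -0.08 ± 0.14 (SD, n = 4) in mutants, and the 4 Nr1d and PAR-bZIP genes 0.06 ± 0.07 and -0.08 ± 0.12. In hippocampus the period and cryptochrome mean was 0.12 ± 0.12 in wild types and -0.03 ± 0.08 in mutants, while the Nr1d and PAR-bZIP mean was -0.02 ± 0.14 and -0.02 ± 0.15. Every pair of groups overlapped. Mutant minus wild type was -0.17 for the first class and -0.14 for the second in cerebellum, and -0.10 and -0.06 without mutants 2 and 4. In hippocampus it was -0.15 and 0.01, and -0.20 and -0.02 without the 3 arrays. The gap between the classes differed between genotypes by -0.03 in cerebellum and by -0.15 in hippocampus, below the pooled SD of 0.125 and 0.176. Single arrays moved it. In cerebellum it was 0.02 without wild type 2, 0.01 without mutant 1, -0.08 without wild type 1, -0.06 without wild type 4 and -0.07 without mutant 3. In cerebellum it was also -0.05 without mutant 2, -0.01 without wild type 3 and -0.02 without mutant 4. In hippocampus it was -0.25 without wild type 4, -0.09 without wild type 3 and -0.09 without mutant 4.

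Within a genotype, the members differed widely in how much they varied. The within-group SD of Per2 in cerebellum was 0.332, larger than that of 99.4% of genes, and Nr1d1 (0.272) and Per1 (0.267) exceeded 98.6% and 98.4%, where the median gene had 0.102. Tef (0.0701), Cry2 (0.0763) and Per3 (0.0902) were below that median. In hippocampus Per1 (0.365), Cry1 (0.339) and Dbp (0.277) exceeded 97.7%, 97.3% and 95.6% of genes, and Clock (0.0577) was below the median of 0.0986. Clock in cerebellum (0.107) and Cry2 in hippocampus (0.112) were above the median. Averaging over probe sets lowers an SD. Among genes with the same number of probe sets, Per2 in cerebellum exceeded 99.7% and Per1 in hippocampus 97.0%, while Per3 in cerebellum exceeded 72.6%, Clock 78.5%, Tef 31.2% and Cry2 15.5%.

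In cerebellum the array-to-array movements were shared by several members. Of 45 pairs of clock genes per region, those with an r of at least 0.8 in size were looked at further, a choice made after the values were seen, and are given without a p. In cerebellum Per1 followed Per2 (r 0.92, rho 0.857, 8 arrays) and Nr1d1 (r 0.86, rho 0.952), and Per3 followed Tef (r 0.90, rho 0.905). Without the 2 spike-in arrays, r was 0.97, 0.76 and 0.84. In hippocampus Cry1 followed Clock (r 0.87, rho 0.786) and ran against Tef (r -0.84, rho -0.571), but without wild-type replicate 1 these were 0.61 and -0.46. Many other genes also moved with these. Of all genes, 16.2% had an unadjusted exact permutation p under 0.05 against Per1 and 6.12% against Per3 in cerebellum. Against Cry1 in hippocampus the share was 15.3%, and no gene passed after adjustment over all genes. The median r over the 45 pairs was 0.31 in cerebellum and 0.07 in hippocampus. Within the period and cryptochrome class it was 0.40 in cerebellum and -0.00 in hippocampus, and within the Nr1d and PAR-bZIP class 0.31 and 0.49. Between the classes it was 0.48 and 0.12. The arrays of a region share their centring and any difference of array quality or of sampling time.

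**Figure D3:**
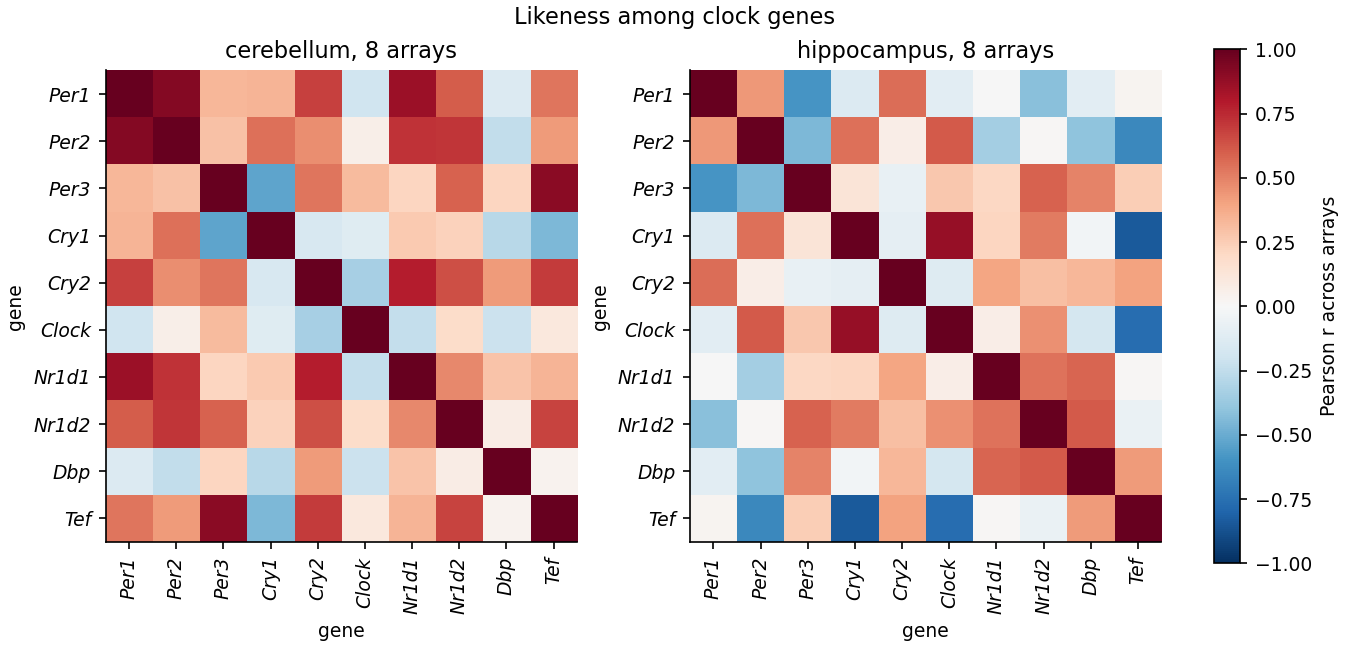
Pearson r between clock genes across the 8 arrays of cerebellum (left) and of hippocampus (right), from -1 in blue to 1 in red, with the same gene order on both axes. The dark red blocks of Per1 with Per2 and Nr1d1 in cerebellum are paler in hippocampus, where Cry1 with Clock is dark red and Cry1 with Tef dark blue.

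Each gene's cerebellar values were set against its hippocampal values over the 8 pairs with the same genotype and number, which the labels do not say came from 1 animal. Over all genes, the deviations of these pairs from their group means correlated at 0.07, -0.05, -0.03 and 0.17 in wild types 1 to 4 and at 0.13, 0.07, -0.18 and -0.12 in mutants 1 to 4, so 4 of the 8 pairs were below 0. Per2 gave r 0.79 (exact permutation p = 0.025, adjusted over all genes 0.92; rho 0.857, exact permutation p = 0.011, adjusted 0.85), and Per1 r 0.72 (exact permutation p = 0.050, adjusted 0.93; rho 0.381, exact permutation p = 0.36). Without the 2 pairs farthest from the median in cerebellum, r was 0.42 for Per2 and 0.41 for Per1. The same step gave 0.83 for Per3 and -0.77 for Cry1. Leaving out such pairs also narrows the range, so it does not show what r rests on. With the genotype means removed, r was 0.69 for Per2 and 0.81 for Per1. Per3 gave 0.56, Nr1d2 0.39, Cry2 0.28 and Dbp 0.24, while Tef (-0.04), Cry1 (-0.16), Nr1d1 (-0.24) and Clock (-0.54) were below 0. In all, r was above 0 for 6 of the 10 genes, against 48.2% of all genes, and its median was 0.26 over the 10 and -0.02 over all genes. Of 18168 genes, 5.37% had an unadjusted p under 0.05 and none passed after adjustment.

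**Figure D4:**
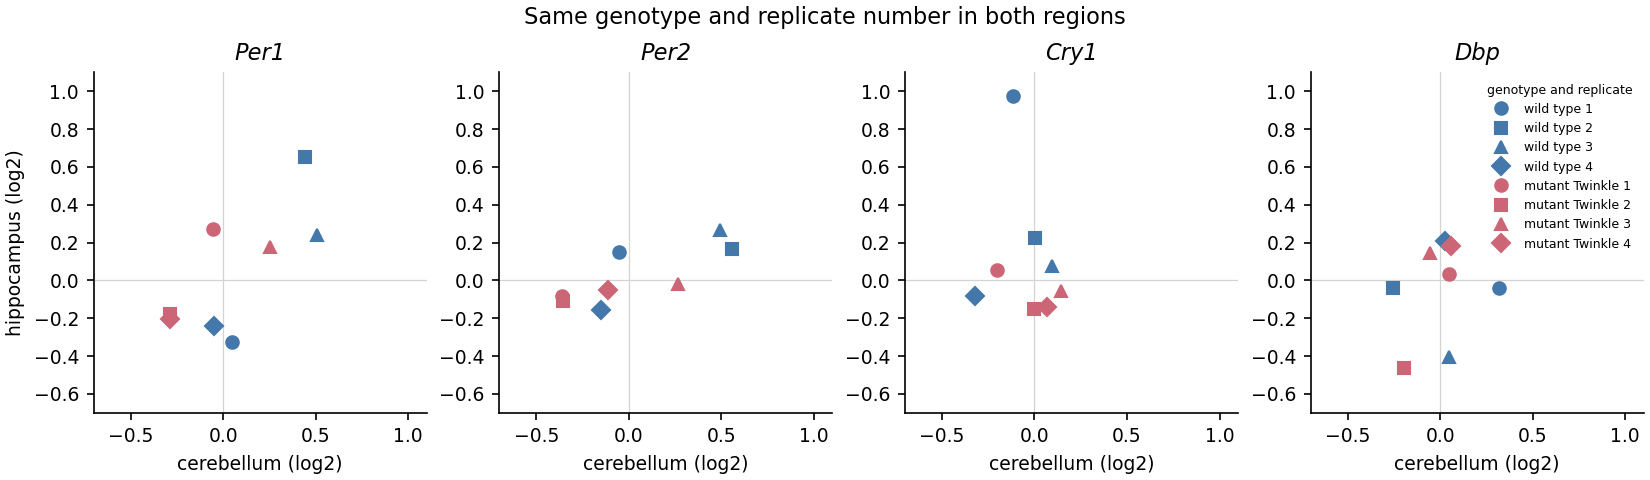
Hippocampal against cerebellar value (log2 difference from each region's median array) of Per1, Per2, Cry1 and Dbp for the 8 combinations of genotype (blue wild type, red mutant Twinkle) and replicate number (symbols). Per1 and Per2 are high in both regions for wild types 2 and 3, whereas Cry1 is high on wild type 1 in hippocampus but not in cerebellum.

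Per1 is also an immediate early gene, and after its values were seen it was set against the mean of 14 others, such as Fos, Arc, Egr1 and Npas4, genes that active neurons rapidly induce. In hippocampus that mean was 0.05, 1.11, 0.57 and -0.51 in wild types and 0.64, -0.41, 0.04 and -0.43 in mutants. Per1 was high on the same arrays, wild types 2 and 3 and mutant 1, and low on wild type 4 and mutants 2 and 4, while on wild type 1 it was lowest with the mean near the middle. The relation gave r 0.90 (exact permutation p = 0.0044, adjusted over all genes 1.00; rho 0.762, exact permutation p = 0.037), higher than for 99.9% of genes, and r 0.72 without the 2 arrays farthest from the median. Per2 gave r 0.65 in hippocampus (exact permutation p = 0.079), and Per1 gave 0.59 in cerebellum (exact permutation p = 0.13). An unadjusted p under 0.05 was found for 3.24% of all genes in hippocampus and 3.83% in cerebellum, and none passed after adjustment over all genes. The 14 genes that make up the mean are counted in these shares, in the rank of Per1 and in the adjustment.

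**Figure D5:**
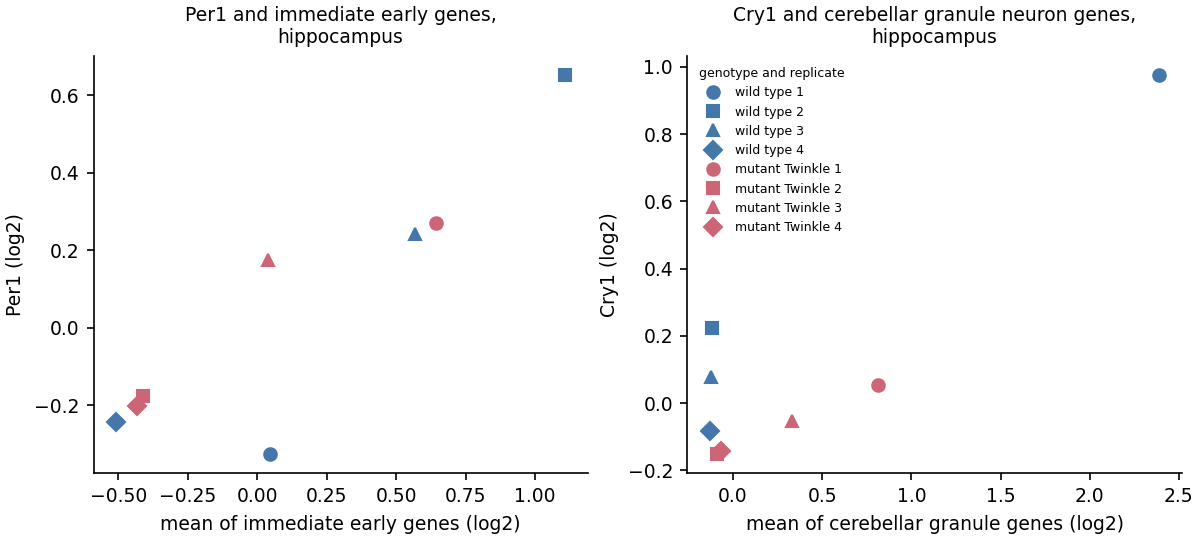
Hippocampal values (log2, relative to the median array) of Per1 against the mean of 14 immediate early genes (left) and of Cry1 against the mean of 8 cerebellar granule neuron genes (right), 1 point per array, blue for wild type and red for mutant Twinkle. Per1 climbs with the immediate early mean except on wild type 1, and the high Cry1 value of wild type 1 sits at the highest granule value, 2.39.

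A further 19 genes of the clock were examined. None passed in any comparison, against the background of 0%. In cerebellum 11 of 19 and in hippocampus 14 of 19 were below 0 in mutants, against 46.4% and 41.1% of all genes. Rora had cerebellar groups that did not overlap, from -0.00 to 0.11 in wild types and from -0.12 to -0.05 in mutants. The difference was -0.15 (SE 0.09; limma adjusted p = 0.88), and 2.46% of all genes had groups that did not overlap there. Its 9 probe sets ran from -0.52 to 0.04 in cerebellum. Arntl, the partner of Clock, differed by 0.00 (SE 0.10) in cerebellum and -0.02 (SE 0.10) in hippocampus, and Npas2, which can take the place of Clock in the forebrain, by 0.04 (SE 0.07) and 0.07 (SE 0.07). The 2 Npas2 probe sets lay on opposite sides of 0 in cerebellum, at -0.17 and 0.24, and were 0.14 and -0.00 in hippocampus. Hlf, the third PAR-bZIP gene, differed by -0.07 (SE 0.11) and 0.09 (SE 0.11). The repressor genes Ciart and Bhlhe41 differed by -0.16 (SE 0.12) and -0.12 (SE 0.12) in cerebellum and by -0.22 (SE 0.12) and -0.20 (SE 0.12) in hippocampus. Bhlhe41 was 0.58 on wild-type hippocampus 1, the array highest in granule genes, and between -0.16 and 0.10 on the other wild types. Differences of these further genes are not given without the arrays that stood apart.

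An unadjusted p under 0.05 was seen for Bhlhe40, another repressor of CLOCK and BMAL1, in hippocampus (-0.21, SE 0.10; limma adjusted p = 0.61), and for Fbxl21, which encodes an F-box protein that acts on cryptochromes, in hippocampus (0.23, SE 0.10; limma adjusted p = 0.59) and on the average over regions (0.21, SE 0.05; limma adjusted p = 0.52, unadjusted 0.0011). Of all genes, 8.03% had an unadjusted p under 0.05 in hippocampus and 8.51% on the average over regions. Bhlhe40 in hippocampus was 0.11, 0.34, 0.37 and -0.08 in wild types and 0.00, -0.00, -0.08 and -0.02 in mutants. Here 3 wild types stood above every mutant and wild type 4 lay slightly below the lowest mutant. Fbxl21 in hippocampus was -0.32, -0.03, 0.03 and -0.20 in wild types and 0.23, -0.15, 0.15 and 0.19 in mutants, with 3 mutants above all wild types and mutant 2 among them. Its lowest array, wild type 1, and its highest, mutant 1, were both among the 3 arrays high in granule genes, as was mutant 3. The part of these arrays in the Fbxl21 differences, in hippocampus and on the average, was not tested.

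With group means removed, the genes most like the class means over the 16 arrays were named by rank of r, as a description. For the period and cryptochrome mean they were Fbxo42 (r 0.90), Fosl2 (r 0.90), Nup50 (r 0.90), Trib1 (r 0.87) and Ccdc117 (r 0.86), and at the other end Zc3h6 (r -0.90), Gm19277 (r -0.90), 2610507B11Rik (r -0.89), Zfp810 (r -0.87) and Xrn2 (r -0.87). Fosl2 encodes a FOS-related subunit of AP-1. For the Nr1d and PAR-bZIP mean they were Mcm7 (r 0.82), Col9a2 (r 0.81), Chkb, Trap1 and Tbc1d17 (r 0.79 each), and Itga2 (r -0.92), Ddx10 (r -0.82), Pgk2 (r -0.81), Zfp882 (r -0.78) and Clca4b (r -0.77) at the other end. No gene stood in both sets.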

How the data were processed

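Per the labels' protocols, Trizol-extracted total RNA was made into biotin-labelled cRNA and hybridised to Affymetrix arrays. The submitters' processing notes name GCOS 4.0, and how arrays were normalized is not given in the sources used here. The deposited values are log values, taken as log2 although the base is not stated, and 99.9% of probe sets in each region had a median within 1e-05 of 0 over its 8 arrays. A filter on dim probe sets was therefore not possible.

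Groups came from the sample titles. The hippocampus samples' free-text description names cerebellum, and title, source and tissue entry were followed. The labels call the samples biological replicates without naming animals. In each region every wild type had its own age, whereas the mutants shared ages in pairs. A p-value covers only the spread among these arrays, part of which may be technical. Of 45101 probe sets, 64 controls and 133 with an empty value were left out. Gene values were means over probe sets with 1 symbol (34843 of 44904 analysed, 931 had several and 9130 none) in GEO's platform annotation, and 9192 genes rested on 1 probe set. limma 3.58.1 (R 4.3.3) fitted all 16 arrays with a mean per group, with two-sided tests adjusted by Benjamini-Hochberg over the 18168 genes. Correlations used exact permutation of all pairings, two-sided. The number of arrays limits the precision. Scripts were tested on simulated data. The genes, the lists and the tests were chosen with earlier results of these data known. All 10 members were named. Other clock genes were named at an unadjusted p under 0.05 in a genotype test, apart from 5 always named and Rora, named because its cerebellar groups did not overlap.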

Additional observations from a re-analysis of the deposited data

Results flagged for a closer look

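Of 52 groups of 4 values examined, 40 of them of the 10 clock genes, 1 had a sample far from the other 3. Clock in mutant cerebellum replicate 4 was 0.18 above the median array while the other mutants lay between -0.06 and -0.04, a gap of 0.908 of the group's range, above the 95% critical value of Dixon's test for 4 samples. Chance flags about 1 in 20 such groups. That array also had raised poly-A spike-ins (0.59) and the lowest choroid plexus genes of the cerebellum (-1.48), and their part in the Clock value was not tested.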

How the results depend on the processing

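The 40 genotype results of the 10 clock genes (2 regions, their difference and their average) were recomputed under 280 combinations of gene and setting and 400 in which 1 array or pair was left out. None passed an adjusted p of 0.05 by limma (smallest 0.368, for Cry1 in hippocampus). The sign turned in 8 of the 280 and 24 of the 400, and the causes were not tested.

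Signs turned with array weights for Dbp (-0.0137) and Tef (-0.0013) in hippocampus and for Dbp on average (0.0025). Settings added after the values were seen turned Cry2 in cerebellum without the 2 spike-in arrays (0.0031), and, without the 3 hippocampal arrays high in granule genes, Dbp (-0.0610) and Tef (-0.0065) in hippocampus and the difference between regions of Per1 (-0.0754) and Nr1d2 (0.0070). Leaving out each replicate gave ranges that crossed 0 for Clock (-0.0728 to 0.0228) and Dbp (-0.1645 to 0.0257) in cerebellum. In hippocampus they were -0.2004 to 0.1260 for Per1, -0.0662 to 0.0131 for Per3, -0.0173 to 0.1191 for Nr1d1, -0.0683 to 0.1901 for Dbp and -0.0162 to 0.1116 for Tef. They were -0.0560 to 0.0455 for Cry2 and -0.1065 to 0.0080 for Nr1d2 in the difference between regions, and -0.0667 to 0.0867 for Dbp on average.

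Over all genes, the 0 called in hippocampus became 2 with quantile normalization, 2 with robust variance estimation, and 0 to 7 when each array was left out (7 without wild type 2). The average over regions gave 1 when each probe set was tested on its own, and the difference between regions 0 to 1 when each array was left out. The younger against the older replicates gave 7 in cerebellum with quantile normalization, and in hippocampus 10 with quantile normalization, 4 with robust variance estimation, 9 with array weights and 0 to 7 when each array was left out. Between 764 and 1546 genes had an unadjusted p under 0.05 in the 6 limma comparisons.

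Whether replicate numbers pair the samples was not settled, since correlations over all genes cannot show if samples share an animal. Same-numbered wild types and mutants correlated between -0.192 and 0.0479 in cerebellum and between -0.067 and 0.231 in hippocampus in their deviations from the group means, and same-numbered regions of 1 genotype between -0.175 and 0.167. With the replicate number as a block, 0 genes were called in each of the 4 genotype comparisons, with a smallest adjusted p from 0.330 to 0.897. A filter on dim probe sets was not run because the centred values hold no level.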
